A study of Mus musculus with 6 samples.

Results

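Messenger RNA of the calcium/calmodulin-dependent kinases, a family of protein kinases switched on by calcium-bound calmodulin, was followed in adult mouse forebrain cortex. A list of 10 genes was drawn up: the upstream kinases Camkk1 and Camkk2, the type I and type IV kinases Camk1, Camk1d, Camk1g and Camk4, and the 4 genes of CaMKII, Camk2a, Camk2b, Camk2d and Camk2g. The genes were listed by family, with the decrease of Camkk2 in these arrays already known, and the rule for a gene with several probe sets was the one selected by the highest mean over all 6 arrays. Each of 9 genes had a single probe set, so no measured value chose between probe sets, and Camkk1 was not analysed here. These are 9 of the 19938 genes tested.

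The animals were C57BL/6 mice. The 3 labelled Dicer KO carried CamKII-Cre and 2 Dicer flox alleles (CamKII-Cre/+;Dicer flox/flox). The 3 littermate controls carried either CamKII-Cre with 1 flox allele (CamKII-Cre/+;Dicer flox/+) or both flox alleles without Cre (+/+;Dicer flox/flox), and which control had which genotype is not given. Every animal therefore had at least 1 floxed allele, and ages beyond "adult" are not given. The driver is the promoter of CaMKII, which is active in excitatory forebrain neurons, so other cells of the dissected cortex keep Dicer, the enzyme that trims microRNA precursors. RNA of each animal was read on 1 Affymetrix whole-transcript array, on a log2 scale on which a difference of 1 is a doubling.

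In neurons, calcium entering through receptors and channels binds calmodulin, and this complex activates the kinases. CaMKK2 sits at the top of a short cascade: it phosphorylates and activates type I and type IV kinases and also AMPK, the cell's energy-sensing kinase. CaMKII needs no upstream kinase. It assembles into large rings of mixed subunits, phosphorylates itself, and is abundant at the postsynaptic density of excitatory synapses.

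The 6 arrays had median values of 7.13 to 7.22, and pairs of arrays correlated across all rows with r of 0.975 to 0.991. Cortical markers were present, Slc17a7, the vesicular glutamate transporter of excitatory neurons, at 12.1 to 12.4 and Tbr1, a cortical transcription factor, at 10.4 to 10.6. Dicer1 read 9.58, 9.68 and 9.46 in the arrays labelled Dicer KO and 9.17, 9.21 and 9.18 in the controls, a difference of 0.39 (limma adjusted p = 0.102) against the direction of the label. Which exons its probe set reads, and whether the floxed ones are among them, was not determined here, so whether this value bears on the deletion or the labels is unknown. Control array 1 stood apart in 7 olfactory bulb markers, whose mean was 0.81 above the control mean there and -0.49 to -0.37 in the other 5 arrays. Labelled KO array 3 stood apart in 7 astrocyte markers, at 0.62 against 0.24 and 0.088 in labelled KO arrays 1 and 2. It also stood apart in 6 measured striatal markers, at 0.70 against 0.17 and 0.037 in those arrays. By the Y-linked gene Eif2s3y, males numbered 2 among the labelled KO animals and 1 among the controls.

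Among the 9 kinases, Camkk2 fell and none of the other 8 passed the test. Camkk2 was 2.02-fold lower in the arrays labelled Dicer KO, Camk1g was 1.39-fold lower without passing, and the 4 CaMKII genes differed by -0.16 to 0.042 on the log2 scale. Because the decrease of Camkk2 was known when the genes were grouped, its call is a description and nothing is read from the count of 1 call in 9, beside which 0.281% of all genes were called in either direction and 0.191% as lower. Of the 9 differences 8 were below 0, with a median of -0.15, where 52.7% of all genes were below 0 with a median of -0.0092. The arrays of both groups did not overlap for 3 genes, Camkk2, Camk1g and Camk4, all lower. Over all genes 11.0% showed such a separation with the labelled KO arrays lower and 9.30% with them higher.

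The starts of the 2 genes with the largest differences are shown to let their promoters be compared. RefSeq windows of 300 bases, from 250 before to 50 after the start (GRCm38.p6), were found for 7 of the 10 genes, with none for Camk2a, Camk2g and Camk4. Camkk2 lies on the minus strand at chr5:122779361-122779660 and Camk1g on the minus strand at chr1:193370233-193370532. Capitals mark the GC box GGGCGG and the CCAAT box CCAAT, each searched on both strands (CCGCCC and ATTGG on the other).
Camkk2: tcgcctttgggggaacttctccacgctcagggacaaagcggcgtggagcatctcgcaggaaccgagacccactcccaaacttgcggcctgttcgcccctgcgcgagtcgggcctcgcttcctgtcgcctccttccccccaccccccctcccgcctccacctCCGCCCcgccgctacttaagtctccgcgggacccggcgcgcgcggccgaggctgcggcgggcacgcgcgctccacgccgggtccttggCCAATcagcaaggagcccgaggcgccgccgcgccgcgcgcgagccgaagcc
Camk1g: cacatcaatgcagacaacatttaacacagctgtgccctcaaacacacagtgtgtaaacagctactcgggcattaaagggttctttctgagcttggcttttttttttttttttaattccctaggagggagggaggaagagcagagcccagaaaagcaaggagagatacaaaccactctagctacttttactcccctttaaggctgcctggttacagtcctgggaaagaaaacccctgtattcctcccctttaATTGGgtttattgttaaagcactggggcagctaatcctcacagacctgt

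The 2 windows are unlike in base composition. That of Camkk2 is 73.3% G and C, above 94.5% of 32851 mouse windows, with 1 GC box and 1 CCAAT box. That of Camk1g is 44.7% G and C, with no GC box and 1 CCAAT box. In both printed windows the marked CCAAT box lies at the start or just past it. All marks are matches of letters, and whether they act was not tested. A high share of G and C is not particular to Camkk2. The windows of Camk2b, Camk2d and Camkk1 are at 77.3%, 70.3% and 75.3%, each with 3 GC boxes. Those of Camk1d are at 48.7% and 71.3%, and that of Camk1 is at 60%. A GC box occurs in 6 of the 8 windows of these genes and in 35.7% of all windows. A CCAAT box occurs in 4 of the 8 and in 37.4% of all. The palindromic site TGACGTCA of CREB, a transcription factor that CaMKIV phosphorylates, occurs in 1.79% of all windows and in none of the 8 windows of these genes, which says only that these letters are not there.

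Camkk2, the upstream kinase, read 9.75, 9.55 and 9.43 in the 3 arrays labelled Dicer KO. In the 3 controls it read 10.68, 10.73 and 10.36. All labelled KO arrays lay below all controls, with 0.61 between the nearest arrays. The means were 9.57 ± 0.16 and 10.59 ± 0.20 (SD, n = 3 each), a difference of -1.01 ± 0.13 (SE), with a 95% confidence interval of -1.30 to -0.73 (limma adjusted p = 0.0286). It was the 8th most negative of 19938 differences. Without labelled KO array 3 the call held (difference -0.94, adjusted p = 0.0365), while without any 1 of the other 5 arrays the adjusted p was 0.0549 to 0.126 with differences of -1.13 to -0.95. With the sex of the animals in the model, chosen after the data were seen, it was -1.06 (limma adjusted p = 0.0892).

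Levels of cell markers are given beside this difference. Of 9 measured excitatory neuron markers 6 were below 0 and none passed the test. Their means relative to the controls were -0.093, -0.095 and -0.092 in labelled KO arrays 1 to 3, where Camkk2 stood at -0.84, -1.04 and -1.16. In the controls those means ranged from -0.082 to 0.070. Single markers differed among themselves, and 3 of the 9 were above 0. Neurod6 was at -0.45 with overlapping groups (limma adjusted p = 0.216), Slc17a7 at -0.098 and Tbr1 at -0.011. Astrocyte markers, 6 of 7 above 0 and none called, averaged 0.24, 0.088 and 0.62 in labelled KO arrays 1 to 3 and -0.11 to 0.091 in the controls. These means lean in part on Gfap, which was at 1.07 (limma adjusted p = 0.196), where the median of the 7 was 0.29. Gfap read 9.10, 8.92 and 10.44 in the labelled KO arrays and 8.34, 8.35 and 8.55 in the controls. Of 6 measured striatal markers 5 were above 0, with a median of 0.34, and none was called. They averaged 0.17, 0.037 and 0.70 in labelled KO arrays 1 to 3 and -0.079 to 0.14 in the controls. Of 5 measured choroid plexus markers 3 were below 0 and 2 above, with a median of -0.037, and none was called. Their means were 0.23, 0.42 and -0.0031 in labelled KO arrays 1 to 3 and -0.099 to 0.054 in the controls. Among the 2 above 0 was Ttr, the transthyretin of choroid plexus, at 1.28, so these means lean on it. Ttr read 9.85, 10.95 and 8.30 in the labelled KO arrays and 8.73, 8.34 and 8.18 in the controls, groups that overlap (limma adjusted p = 0.319). Without labelled KO array 2, Camkk2 differed by -1.001 and was not called (limma adjusted p = 0.108). Interneuron markers averaged 0.055, 0.053 and 0.25 in labelled KO arrays 1 to 3 and -0.055 to 0.052 in the controls. Oligodendrocyte markers averaged 0.14, -0.27 and 0.36 in labelled KO arrays 1 to 3 and -0.15, -0.21 and 0.36 in control arrays 1 to 3. Microglial markers averaged -0.15, -0.30 and 0.36 in the labelled KO arrays and -0.14, -0.015 and 0.16 in the controls. Between the group means, oligodendrocyte markers differed by 0.079, microglial markers by -0.028, endothelial and mural markers by 0.091 and dentate gyrus markers by 0.054. No gene of these lists was called. The part of cell makeup in the difference of Camkk2 was not tested. In such bulk RNA, fewer cells of a type and less RNA per cell cannot be told apart. Without control array 1, the one with olfactory bulb transcripts, Camkk2 differed by -0.97 and was not called (limma adjusted p = 0.122). In that fit no gene of the 19938 was called. The same held without labelled KO array 1 or 2, or without control array 2 or 3, so these lost calls are not particular to Camkk2.

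**Figure D1:**
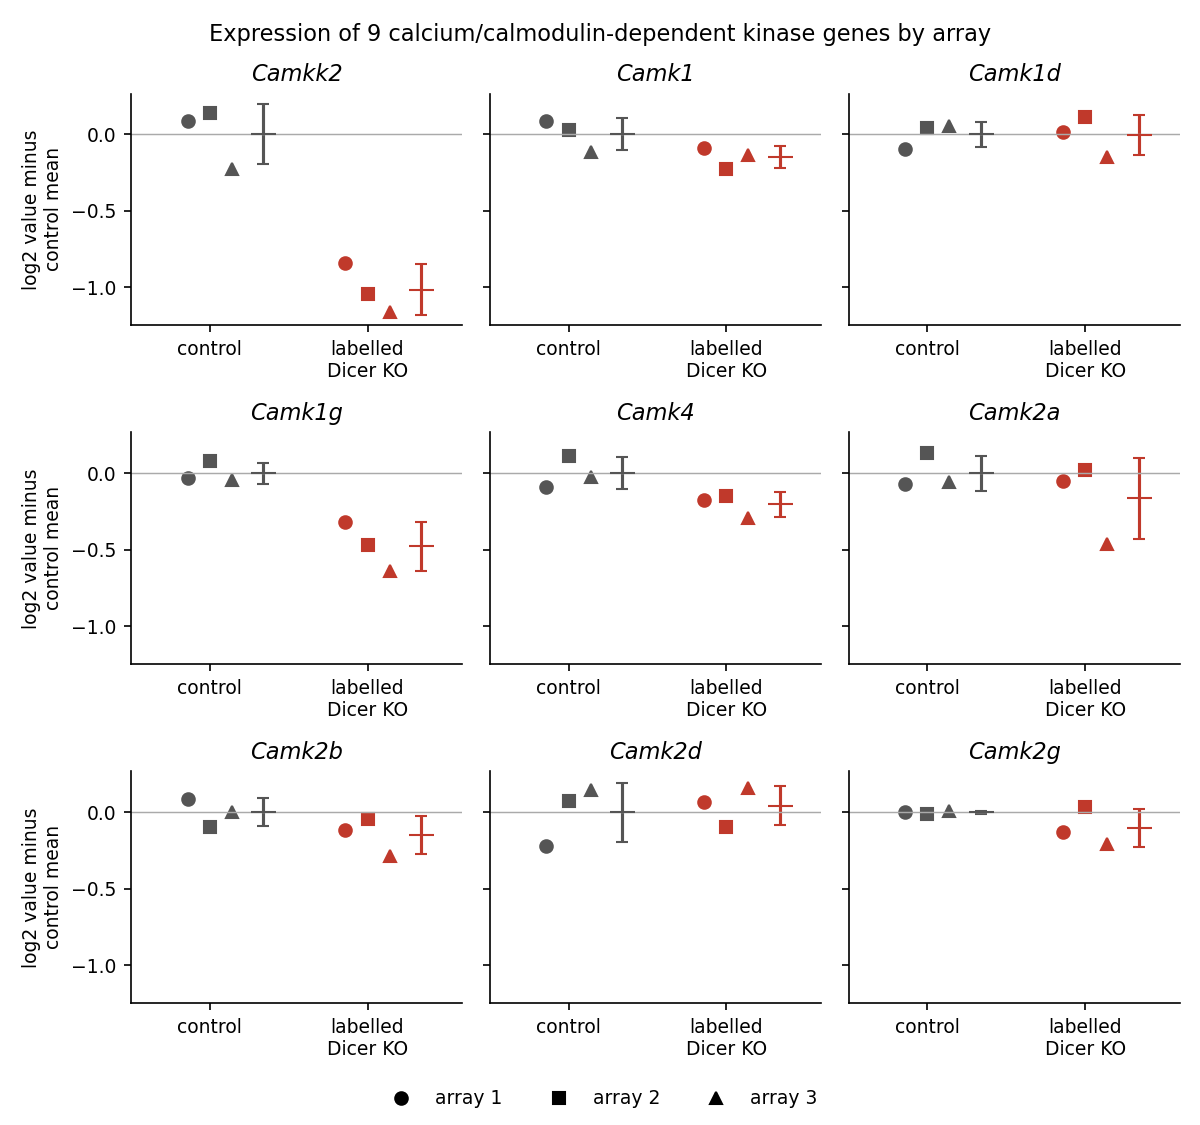
Log2 value of each kinase gene minus its mean in the 3 controls, by array (symbols mark array numbers), with the group mean ± SD beside the points (n = 3). The labelled KO arrays lie at -0.84 to -1.16 for Camkk2, below all controls, and overlap the controls for 6 of the 9 genes.

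The type I and type IV kinases are the substrates of CaMKK2. Camk1g, a membrane-anchored type I kinase of neurons, read 8.41, 8.26 and 8.09 in the arrays labelled Dicer KO and 8.70, 8.81 and 8.69 in the controls. The groups did not overlap, with 0.27 between the nearest arrays. The difference of -0.48 ± 0.10 (SE; 95% confidence interval -0.71 to -0.25) had an unadjusted p of 0.00117 in limma and missed the threshold over all genes (adjusted p = 0.0888). It ranked 219th from the most negative. With limma's array weights it passed, at -0.37 (adjusted p = 0.0370), and in the other settings tried it did not. Those weights raised the calls over all 19938 genes from 56 to 1116, so that pass is not particular to Camk1g.

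Camk4, the nuclear kinase that phosphorylates CREB, read 10.33, 10.35 and 10.21 in the arrays labelled Dicer KO and 10.41, 10.61 and 10.48 in the controls. All labelled KO arrays were below all controls, but by only 0.055 at the nearest. Its difference was -0.20 ± 0.092 (SE; 95% confidence interval -0.41 to 0.0034; limma adjusted p = 0.356).

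Camk1, the broadly expressed type I kinase, read 9.11, 8.98 and 9.07 in the labelled KO arrays and 9.29, 9.23 and 9.09 in the controls, so the groups overlapped. Its difference was -0.15 ± 0.090 (SE; limma adjusted p = 0.510), and the 95% confidence interval of -0.35 to 0.056 leaves room for a decrease to 0.783 of the control level. Camk1d, the delta type I kinase, read 10.19, 10.29 and 10.02 in the labelled KO arrays and 10.08, 10.21 and 10.22 in the controls. These values overlapped fully, with a difference of -0.0044 ± 0.097 (SE; 95% confidence interval -0.22 to 0.22; limma adjusted p = 0.989), whose sign turned in several settings.

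Camkk2 differed by more than any of these 4 substrates on the same arrays. Set against Camk1g, which had the largest difference of the 4, Camkk2 still had a log2 ratio of -0.52, -0.57 and -0.52 in the 3 labelled KO arrays, relative to the mean control ratio. Against Camk4 the within-array log2 ratio was -0.81 in the mean, against Camk1 -0.87 and against Camk1d -1.01. These ratios share the Camkk2 values and are descriptions.

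The CaMKII genes come in a neuronal pair, Camk2a and Camk2b, and a more widely expressed pair, Camk2d and Camk2g. Camk2a, an abundant kinase subunit of excitatory neurons, read 13.07, 13.14 and 12.65 in the labelled KO arrays and 13.04, 13.25 and 13.06 in the controls. Labelled KO array 3 alone lay below the controls, and the other 2 were within their range. The difference of -0.16 ± 0.13 (SE; 95% confidence interval -0.47 to 0.14; limma adjusted p = 0.642) was -0.014 without labelled KO array 3. That array also had the highest means of astrocyte and of striatal markers, and whether these bear on its Camk2a value was not tested.

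Camk2b, whose subunit binds actin, read 11.36, 11.43 and 11.19 in the labelled KO arrays and 11.57, 11.38 and 11.48 in the controls. The groups overlapped, and the difference was -0.15 ± 0.097 (SE; 95% confidence interval -0.37 to 0.071; limma adjusted p = 0.538). Camk2d read 10.16, 10.002 and 10.26 in the labelled KO arrays and 9.88, 10.17 and 10.24 in the controls. It was the 1 kinase of the 9 with a positive difference, 0.042 ± 0.12 (SE; 95% confidence interval -0.22 to 0.31; limma adjusted p = 0.909), and the lowest and the highest values of all 6 arrays came from control array 1 and labelled KO array 3.

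Camk2g read 10.83, 11.00 and 10.76 in the labelled KO arrays and 10.96, 10.96 and 10.97 in the controls. The controls had an SD of 0.0087, and the labelled KO arrays, with an SD of 0.12, lay on both sides of them. Its difference was -0.10 ± 0.090 (SE; 95% confidence interval -0.31 to 0.10; limma adjusted p = 0.674).

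CaMKII rings mix these subunits, so the balance between their transcripts was compared within each array for all 6 pairs. The change of a pair's log2 ratio ran from -0.21 for Camk2a over Camk2d to 0.14 for Camk2d over Camk2g. The ratio of Camk2a over Camk2d stood at -0.11, 0.12 and -0.62 in the labelled KO arrays and at 0.15, 0.056 and -0.20 in the controls, relative to the control mean, so the spread within groups was wider than the difference. With 3 arrays a group, the smallest p of a two-sided exact permutation test is 0.1, so it cannot pass the threshold and says nothing about whether the balance held (p = 0.4 to 0.9, and 0.84 to 0.9 after adjustment over the 6 pairs). The neuronal pair, Camk2a over Camk2b, changed by -0.015.

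**Figure D2:**
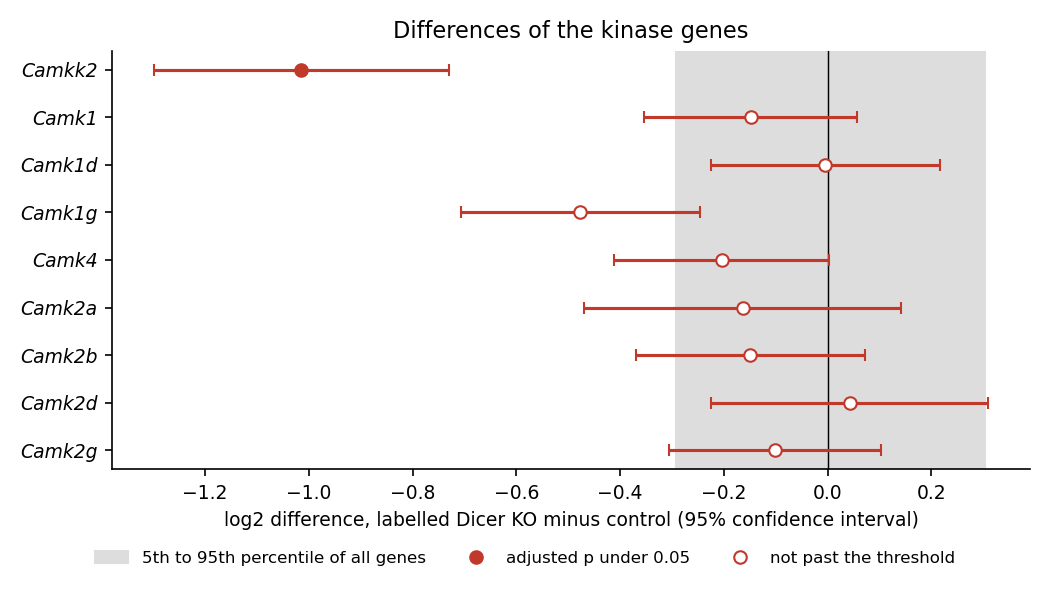
Log2 difference of each kinase gene, labelled Dicer KO minus control, with its 95% confidence interval from limma (3 arrays a group), over a grey band for the 5th to 95th percentile of all genes, -0.29 to 0.30. Camkk2 and Camk1g lie outside the band, and only Camkk2 is past the threshold of an adjusted p of 0.05.

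Genes around the kinases were taken as 7 lists with 68 genes, of which 65 were measured. Of these, 1 passed the test, as lower, beside 0.281% of all genes called in either direction and 0.191% as lower, and its decrease was known when the lists were written. Nrgn, neurogranin, which holds calmodulin at the postsynaptic side when calcium is low, read 11.27, 11.31 and 11.22 in the labelled KO arrays and 11.97, 11.90 and 11.76 in the controls. The groups did not overlap, and Nrgn fell by 0.60 ± 0.088 on the log2 scale (SE; limma adjusted p = 0.0413). Its call held without labelled KO array 3 (adjusted p = 0.0488) and was lost without any 1 of the other 5 arrays (0.0834 to 0.188) and with sex in the model (0.146). Of the 6 measured members of the list of calmodulin and its binding buffers, all 6 were below 0, with a median of -0.17, and 5 did not pass. Among these, the calmodulin genes Calm2 and Calm3 were at -0.066 and -0.17, and Pcp4, a calmodulin-binding peptide, was at -0.38 (limma adjusted p = 0.250).

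The direct inhibitors and phosphatases of the kinases did not pass. Camk2n1, an inhibitor protein of CaMKII, read 12.95, 13.05 and 12.22 in the labelled KO arrays and 13.11, 13.21 and 12.82 in the controls, a difference of -0.31 ± 0.21 (SE; limma adjusted p = 0.552). Array 3 was the lowest of both groups, and without labelled KO array 3 the difference was -0.048. Its relative Camk2n2 was at 0.13, and the phosphatases Ppm1e and Ppm1f, which remove activating phosphates from these kinases, were at -0.18 and -0.11.

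AMPK is the other target of CaMKK2, and no gene of its list passed the test. Prkaa2, which encodes a catalytic subunit, read 10.30, 10.44 and 10.34 in the labelled KO arrays and 9.80, 10.08 and 9.97 in the controls, with no overlap. The difference was 0.41 ± 0.098 (SE; limma adjusted p = 0.119). Prkaa1, the alternative catalytic subunit, was at 0.20 and overlapped between groups. Stk11, the kinase LKB1 that also activates AMPK, was at 0.051, and Map3k7, the kinase TAK1, at 0.31 (limma adjusted p = 0.192). Of the 13 genes of AMPK and its activators 8 were above 0, with a median of 0.051.

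In the list of 14 other calmodulin-regulated or CaMK-like kinases, 7 were above 0 and 7 below, and none passed. Pnck, a further type I kinase, read 9.45, 9.40 and 9.31 in the labelled KO arrays and 8.78, 9.10 and 9.30 in the controls, at 0.33 ± 0.13 (SE; limma adjusted p = 0.302). All labelled KO arrays were above all controls, the nearest by a small margin. Dapk1, a death-associated kinase, was at 0.36 (limma adjusted p = 0.196) and Dclk3, a doublecortin-like kinase, at -0.24 (limma adjusted p = 0.251).

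Of the remaining lists, 1 had mostly positive and 2 had mostly negative differences, with no gene past the threshold. Of 8 CREB factors and coactivators 6 were above 0 (median 0.11), with the coactivators Crtc2 at 0.24 and Crtc3 at 0.25. Of 12 measured CaMKII anchors and synaptic substrates 9 were below 0 (median -0.17), with Lrrc7, the scaffold densin that binds CaMKII, at -0.36 (limma adjusted p = 0.114) and the NMDA receptor subunit gene Grin2a at -0.35 (limma adjusted p = 0.143). Of 8 calcineurin genes, which encode the calmodulin-activated phosphatase and its regulators, 7 were below 0 (median -0.12), with the catalytic subunit gene Ppp3cb at -0.22 and the inhibitor gene Rcan1 at -0.17. Over all 7 lists the median was -0.058.

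**Figure D3:**
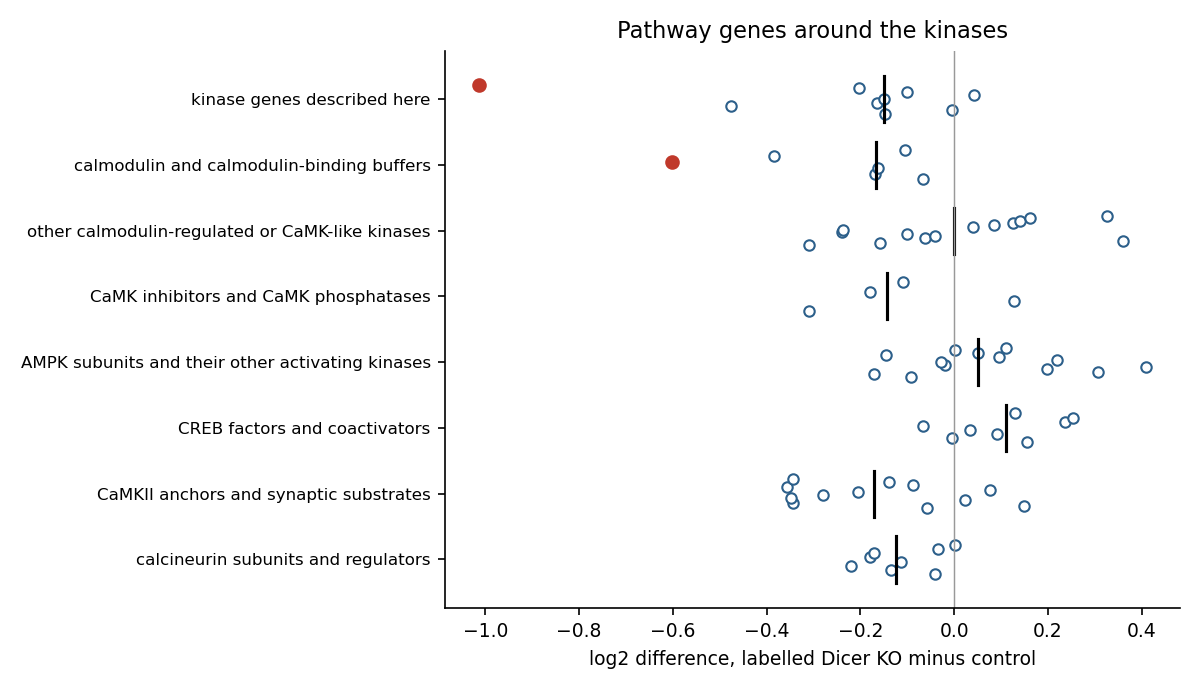
Log2 difference, labelled Dicer KO minus control, of the 9 kinase genes and of the genes of 7 surrounding lists, 1 point a gene, with filled points past an adjusted p of 0.05 and a bar at each median. Camkk2 and Nrgn are the filled points, and the list medians lie between -0.17 and 0.11.

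The array profile of Camkk2 was compared with that of the other 19937 genes by the root mean square difference of log2 values, each set relative to the gene's own mean over 6 arrays. The nearest 5 named genes were Hkdc1, of the hexokinase family, at 0.097, Lynx1, a modulator of nicotinic receptors, at 0.10, Scube1, a secreted protein, and Frzb, a Wnt antagonist, both at 0.14, and Spink10, of a protease inhibitor family, at 0.16. A single gene model without a proper name was passed over. The likeness is mainly that of the difference between groups, which was -0.86 for Hkdc1, -0.97 for Lynx1, -0.95 for Scube1, -1.24 for Frzb and -0.99 for Spink10. Hkdc1 read 7.49, 7.26 and 7.03 in the labelled KO arrays and 8.12, 8.31 and 7.94 in the controls, with the arrays of each group in the same order as for Camkk2. Lynx1 read 9.86, 9.90 and 9.49 in the labelled KO arrays and 10.73, 10.94 and 10.50 in the controls, in that order within the controls but not within the labelled KO arrays.

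**Figure D4:**
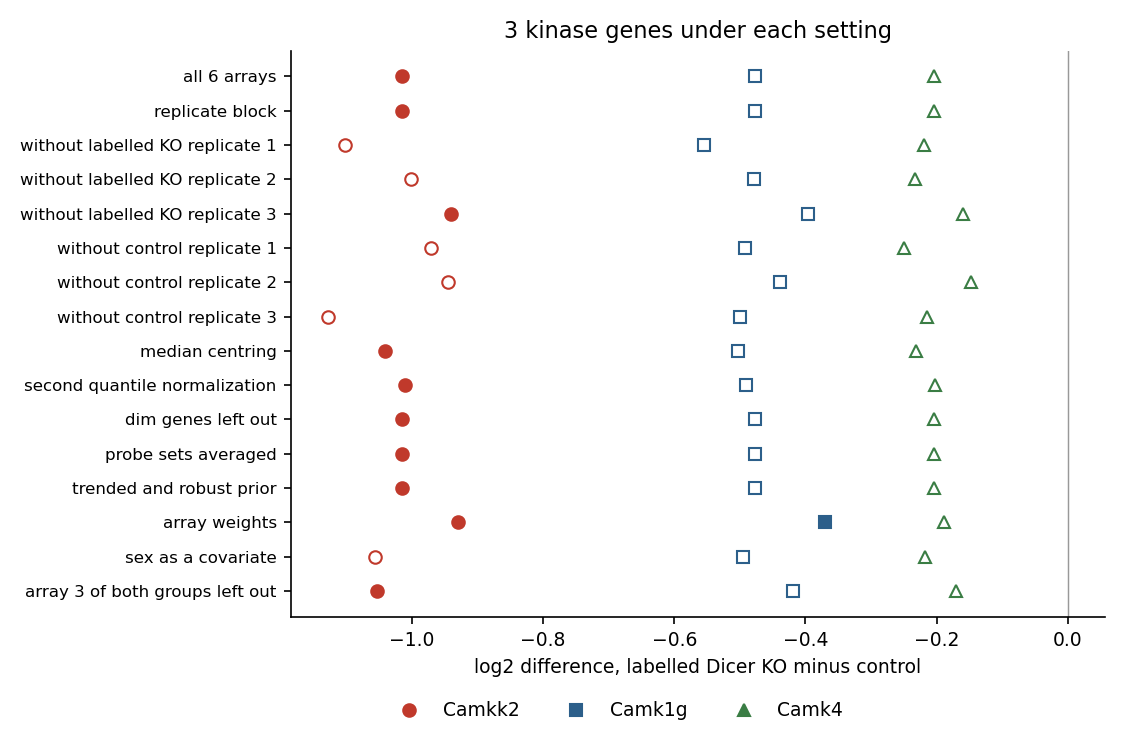
Log2 difference of Camkk2, Camk1g and Camk4, labelled Dicer KO minus control, in each of 16 settings of the fit, with filled symbols where the adjusted p is under 0.05. Camkk2 lies between -1.13 and -0.93 and is past the threshold in 10 settings, Camk1g lies between -0.56 and -0.37 and is past it in 1, and Camk4 lies between -0.25 and -0.15 and is past it in none.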

How the data were processed

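Total RNA (200 ng per animal) was amplified, labelled and hybridised to 1 array each, per the labels' protocols. The deposited table holds log2 values, 1 per probe set and array (1.93 to 14.8). Per the submitters' processing notes RMA and limma were used, with no version named. The background step is not given in the sources used here. For dim transcripts, RMA pulls differences towards 0, and no detection call was used. The number of arrays limits the precision.

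Of 35557 rows, 21789 had 1 gene symbol in the platform annotation, and the 1621 with several and 12147 with none listed were not used. Of those kept, 21698 were renamed through the gene identifier (assembly GRCm38.p6) and 91 kept the annotation's symbol, and the brightest probe set was kept for each of 19938 genes. Groups came from the titles, where arrays are biological replicates, and p-values cover the spread between these animals. The test was limma 3.58.1 in R 4.3.3 (group only, two-sided), with Benjamini-Hochberg adjustment over all genes, at 0.05. The fit was also run on simulated data with independent noise. Such data hold none of the differences between arrays described above, so the run checks the code only. The members and lists were chosen with earlier results of these data known. Genes named are all members, preset pathway genes, the genes past the threshold and the 2 of smallest p in each list, and the 5 profiles nearest to Camkk2. Alternatives were a block for the replicate number, dropping single arrays, centring on array medians, another quantile normalization, leaving out dim genes, probe sets averaged, another prior and array weights. A sex term, and a fit without both arrays numbered 3, were chosen after seeing the data.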

Additional observations from a re-analysis of the deposited data

How the results depend on the processing

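Camkk2 kept its sign in all 16 settings and its call in 10. The count of called kinases was 0 to 1 with 1 array left out, 2 with array weights and 0 with sex as a covariate (2 at an unadjusted p under 0.05 in limma). The count of called pathway genes was 0 to 1 with 1 array left out, 6 with array weights and 0 with sex (13 at an unadjusted p under 0.05). Over all genes limma called 56. Without labelled KO array 3 it called 129 (3373 at an unadjusted p under 0.05). Without any 1 of the other 5 arrays it called 0 (2197 to 2532 at an unadjusted p under 0.05). With dim genes left out it called 178 of the 9969 genes then tested. With array weights it called 1116 and with array 3 of both groups left out 89. With sex it called 0 (2292 at an unadjusted p under 0.05). The causes were not tested, except that fewer genes or arrays enter some of these fits.

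With the replicate number as a block 215 genes were called, and Camkk2 was again the 1 kinase called (limma adjusted p = 0.0244). Hkdc1 (limma adjusted p = 0.0510 over all 6 arrays) gained a call under the block and in 7 other settings, with adjusted p of 0.0112 to 0.0489. Deviations of same-numbered arrays correlated at 0.089 to 0.29, and 5 of 6 arrays correlated best with their own number, a hint from the data only, so the numbers were not taken as pairs.

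Signs turned for Camk1d, at 0.00019 with a second quantile normalization, 0.024 with array weights, 0.016 with sex, 0.094 without array 3 of both groups and -0.064 to 0.067 with 1 array left out. Camk2d was at -0.011 with sex and -0.067 to 0.11 with 1 array left out, and Stk11 at -0.046 to 0.18.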

Other observations

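Within arrays of 1 sex, as read from Eif2s3y, Camkk2 differed by -1.14 between 2 male labelled KO arrays and 1 male control and by -0.97 between 1 female labelled KO array and 2 female controls. Camk1g differed by -0.56 and -0.43 and Camk4 by -0.35 and -0.089 in the same comparisons. Camk2a went from -0.39 in the male arrays to 0.086 in the female ones, and Camk1d from -0.10 to 0.14. With 1 array on a side these values have no test.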
